A study of Arabidopsis thaliana with 45 samples.

Results

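First true leaves of Arabidopsis thaliana, the first pair of rosette leaves made after the cotyledons, were compared between 2 ages in short days. The 6 libraries were chosen by their labels: Col-0, the standard laboratory accession, grown with 8 h of light and 16 h of dark and harvested at day 18 (D18, 3 libraries) or day 23 (D23, 3 libraries). They are 6 of the 45 libraries of the series, which follows leaf ageing under long and short days and in the line tcx5/6. The days carry the unit DAG, which the labels do not spell out. All 6 libraries are labelled with the Col-0 genotype and background, and the labels name no transgene, added agent or mutation in them. Of 37336 genes in the table, 20523 reached a normalised read count of 10 in at least 3 of the 6 libraries and were tested. Values below are normalised read counts, which are not divided by gene length, so they compare 1 gene between libraries and not different genes. Each log2 change is D23 minus D18 on log2(value + 1), with its standard error (SE) where given, and each adjusted p is from limma over all genes tested unless another tool is named. Means are ± SD with n = 3 libraries.

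The 6 libraries held 24922667 to 34004405 reads in genes, and 22446 to 22975 genes had a read. Limits set by a count of 0 cover counting error only, since reads of 1 molecule may repeat. Whether replicates came from separate plants is not in the labels, so a p-value here measures library-to-library spread that may be technical. That spread was nearly flat over 3 classes of genes by read count, which leave out the least and the most read genes. Across these classes the variance between replicates was 5.25 to 5.74 times counting noise at D18 and 5.54 to 5.86 times at D23. In long days it was 6.66 to 86.7 times at D18 and 3.42 to 11.4 times at D23. Some genes set the libraries labelled short days apart from those labelled long days. QQS, a starch-related gene whose expression is known to depend on DNA methylation and which was chosen here after its values were seen, had no read in any of the 6 libraries and 644.9 to 1051 normalised reads in the 6 long-day libraries of the same days. A count of 0 in a group allows up to 3 reads over the group. TCX5 ranged from 108 to 216 in the 6 libraries, against means of 326 ± 61.8 and 336 ± 15 in long days. TCX6 ranged from 254 to 425, against 23.7 ± 13.4 and 34.3 ± 6.41. What sets these genes apart was not tested. These values leave the genotype and day length labels of the libraries in doubt, so groups are named below as labelled, and a difference between day lengths cannot be told apart from what sets these genes apart.

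A leaf first grows by cell division and then by cell expansion, in which expansins and xyloglucan endotransglucosylase/hydrolases (XTH) loosen the wall while aquaporins carry water into the vacuole. A grown leaf keeps a large pool of photosynthetic protein, and as it ages it can dismantle chlorophyll and chloroplasts and export the nitrogen. Abscisic acid, a hormone of drought and ageing, binds PYR/PYL receptors that then inhibit PP2C phosphatases, which frees kinases to activate ABF transcription factors at ABRE promoter elements. CBF/DREB factors act on the related cold and dehydration genes through DRE elements.

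At D23 the leaves held more RNA of abscisic acid, cold and dehydration genes and less RNA of cell expansion, photosynthesis, chlorophyll synthesis and cytosolic ribosome genes than at D18. Over all genes tested, 5774 (28.1%) were higher at D23 and 6647 (32.4%) were lower, with a median log2 change of -0.02. A change of at least 2-fold was called for 1520 genes (7.41%) upward and 2829 (13.8%) downward. The values of 13272 genes (64.7%) did not overlap between the groups. With so large a share of genes called, the size and the direction of a list's changes say more than its count. In bulk leaf RNA, fewer cells of a type and less RNA per cell cannot be told apart.

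**Figure D1:**
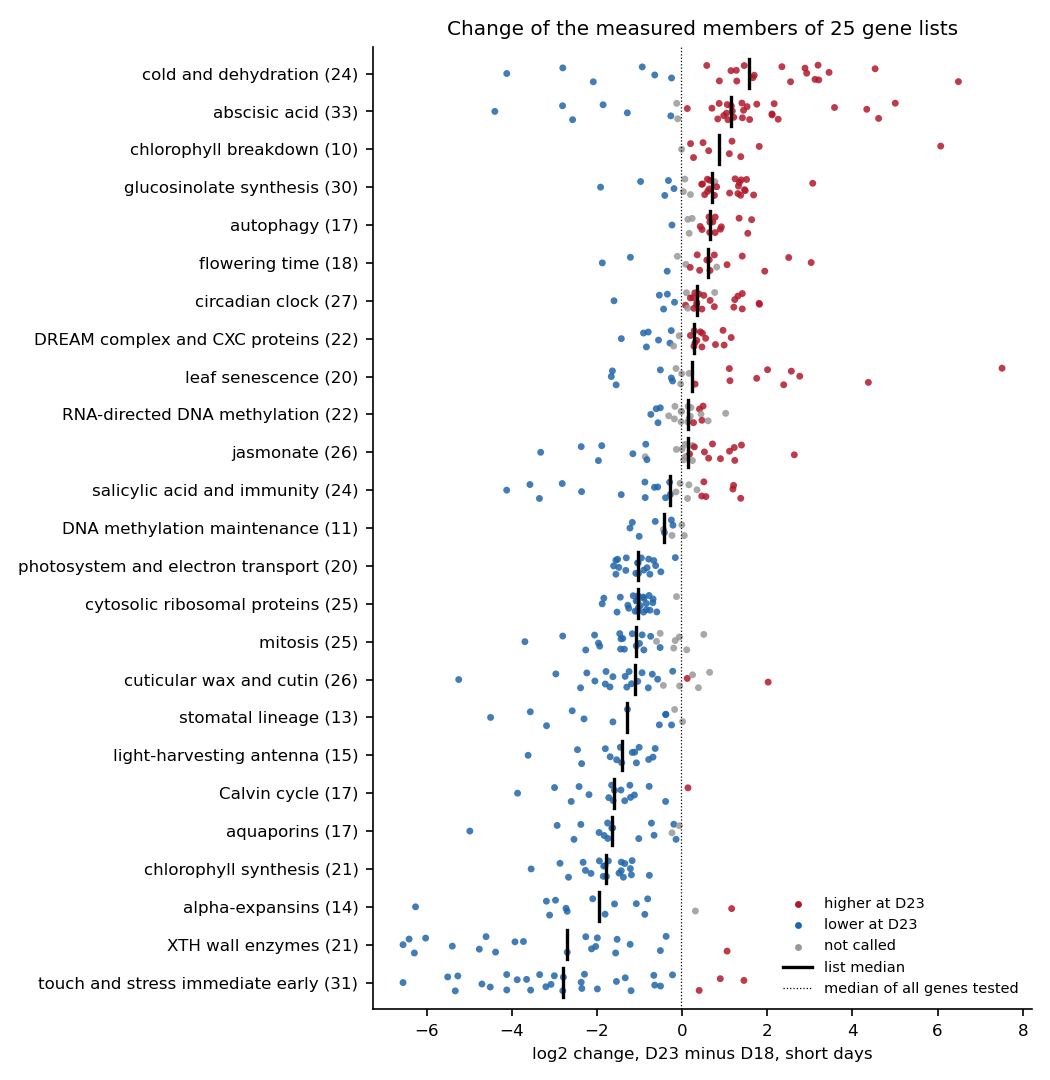
Log2 change from D18 to D23 of every tested member (points) of 25 gene lists, with the list median (bar); red and blue points passed the test upward and downward and grey points did not, and the dotted line is the median of all genes tested. Medians run from 1.56 for the cold and dehydration list to -2.80 for the touch list.

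The cold and dehydration list had the highest median of the pathway lists, 1.56, with 18 of 24 tested members higher and 6 lower. RD29A (AT5G52310), a stress gene with both DRE and ABRE control, had 6155, 5720.1 and 6164 normalised reads at D18 and 72085, 71483 and 72136 at D23. It rose 12-fold (log2 change 3.58 ± 0.03 SE, adjusted p = 2.8e-35). COR15A (AT2G42540), which encodes a chloroplast protein that protects membranes in freezing, had 2575, 2554 and 2801 at D18 and 28251, 30167 and 28362 at D23 (log2 change 3.45 ± 0.04 SE, adjusted p = 1.2e-31). GOLS2 (AT1G56600), a galactinol synthase that starts the raffinose sugars, went from 51.5, 39.8 and 85.4 to 4996, 5035 and 5333 (log2 change 6.49 ± 0.16 SE, adjusted p = 4.3e-23). For all 3 genes the lowest D23 library lay far above the highest D18 library. KIN2, COR47 and COR15B, further proteins of this protective class, rose by log2 2.93, 2.35 and 2.55. Their regulators were mixed. CBF1 and CBF2, which encode the cold-induced factors, were lower (log2 -0.93 and -2.08), CBF3 was higher by 1.66, and ZAT12 and ZAT10 fell (log2 -4.12 and -2.80). These 5 regulators were chosen after their values were seen. In share of all reads in genes, the list took 0.2432 to 0.2434% at D18 and 1.223 to 1.26% at D23.

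Abscisic acid genes were mostly higher: 25 of 33 tested members rose, 6 fell, and the median was 1.16. Among synthesis genes NCED4, a carotenoid cleavage dioxygenase, rose by log2 1.16, and NCED3, the main stress-induced dioxygenase of the pathway, by 1.44. Of the receptors, PYL4, PYL5 and PYL6 were lower (log2 -1.85, -2.57 and -2.81). Among phosphatases, HAI1 (AT5G59220), a PP2C induced by the hormone, had 5.94, 3.18 and 22.3 at D18 and 284, 259.5 and 301 at D23 (log2 change 5.01 ± 0.44 SE, adjusted p = 1.2e-10). PP2CA rose by log2 1.53, ABI1 by 1.08, ABI2 by 1.41 and HAI2 by 4.34. The ABF factors ABF1 to ABF4 rose by log2 0.98, 1.06, 1.42 and 1.18. Of the enzymes that break the hormone down, CYP707A1, CYP707A2 and CYP707A4 were higher (0.87, 1.76 and 2.11) and CYP707A3 was lower (-4.40). LEA14, a late embryogenesis abundant protein, rose by log2 2.11. In this paragraph only NCED4, HAI1, PP2CA and LEA14 were named by rule, and the others were chosen after their values were seen.

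Promoters were read from the TAIR10.1 assembly of RefSeq for 20439 of the tested genes, as the 250 bases before the gene start. The authors' build is not named in the labels. Genes were matched by locus identifier. DRE was searched as ACCGAC and ABRE as ACGTGGC or ACGTGTC, on both strands, and the ABRE letters partly overlap the G-box CACGTG. DRE was in 5.12% of all promoters and in 5.89% of those of genes called at least 2-fold higher. ABRE was in 7.17% of all promoters and in 11.7% of those called at least 2-fold higher, against 7.32% of those called at least 2-fold lower, where DRE was in 4.35%. In the cold and dehydration list DRE was in 5 of 18 promoters of higher members and 0 of 6 of lower ones, and ABRE in 2 of 18 and 2 of 6. In the abscisic acid list ABRE was in 9 of 25 and 2 of 6, and DRE in 2 of 25 and 1 of 6. The windows of KIN2, COR47 and COR15B held neither motif in the letters searched. Those of RD29A (chr5:21240467-21240716, plus strand), COR15A (chr2:17712331-17712580, minus strand) and GOLS2 (chr1:21207287-21207536, plus strand) are shown 5′ to 3′ because the results above turn on these genes, with each DRE, on either strand, in capitals. RD29A held 3 ACCGAC matches and each of the others 1, and a match is a description and not a site of action. No ABRE in the letters searched was found in these 3 windows, that of RD29A included. Other forms of the element were not searched, and the unmarked GCCGAC in the COR15A window differs by 1 letter.
RD29A: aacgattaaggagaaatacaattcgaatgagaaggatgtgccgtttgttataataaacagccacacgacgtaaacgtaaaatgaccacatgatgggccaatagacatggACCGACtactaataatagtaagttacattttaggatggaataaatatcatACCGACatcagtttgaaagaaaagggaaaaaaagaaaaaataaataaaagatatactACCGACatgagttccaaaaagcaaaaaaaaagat
COR15A: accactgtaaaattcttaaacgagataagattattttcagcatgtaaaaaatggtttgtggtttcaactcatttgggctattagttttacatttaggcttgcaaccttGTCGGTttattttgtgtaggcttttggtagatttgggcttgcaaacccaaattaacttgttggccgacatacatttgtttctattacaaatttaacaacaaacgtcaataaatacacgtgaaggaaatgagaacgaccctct
GOLS2: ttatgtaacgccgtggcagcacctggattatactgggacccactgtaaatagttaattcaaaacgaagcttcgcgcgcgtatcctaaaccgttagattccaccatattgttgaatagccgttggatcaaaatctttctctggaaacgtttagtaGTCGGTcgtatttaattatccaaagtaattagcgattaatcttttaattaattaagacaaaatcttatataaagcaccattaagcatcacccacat

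Genes of cell expansion went down together. Of 14 alpha-expansins tested, which loosen the wall without cutting it, 12 were lower and 1 was higher (median -1.95). EXPA10 (AT1G26770) had 888, 893 and 919 normalised reads at D18 and 7.11, 25.9 and 6.48 at D23 (log2 change -6.26 ± 0.33 SE, adjusted p = 1.8e-15). Its D18 values were all above 800 and its D23 values all below 30. EXPA1, EXPA6, EXPA8 and EXPA11 fell (log2 -2.10, -3.11, -2.70 and -3.19). Of 21 XTH genes, which cut and rejoin xyloglucan, 20 were lower and 1 was higher (median -2.70). XTH4 (AT2G06850) went from 2003, 2190.3 and 1996 to 49.8, 27.6 and 21.1 (log2 change -6.02 ± 0.20 SE, adjusted p = 5.8e-20), with no overlap. XTH16, XTH6, XTH7 and XTH31 fell (log2 -6.29, -4.60, -3.92 and -2.13). Aquaporins were lower in 15 of 17 members and higher in none (median -1.65). TIP2;1 (AT3G16240), a channel of the vacuolar membrane, had 8139, 7871 and 8419 at D18 and 259, 222 and 294 at D23 (log2 change -4.98 ± 0.08 SE, adjusted p = 1.2e-27). TIP1;1 and TIP1;2, the other vacuolar channels named, fell (log2 -1.83 and -1.63), and the plasma membrane channel PIP2;7 (-2.54).

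Wall and cuticle lists were lower too. In the cellulose and secondary wall list 17 of 21 members fell and 1 rose (median -0.95). CESA6, a subunit of the primary wall cellulose synthase, had 6742 ± 94.3 normalised reads at D18 and 2584 ± 69 at D23, log2 -1.38. The arabinogalactan proteins FLA2 and FLA8 fell (log2 -4.59 and -3.54). Of 26 wax and cutin genes 19 fell and 2 rose (median -1.11), among them the fatty acid elongases KCS1 (-2.38) and KCS20 (-1.30) and the lipid transfer protein LTPG1 (-2.05). Stomatal lineage genes fell in 11 of 13 members (median -1.28). EPFL9, the stomagen peptide that promotes stomata, had 39.2 ± 25.7 normalised reads at D18 and 0.948 ± 1.64 at D23 (log2 -4.50). The auxin list was mixed, with 8 of 34 higher and 16 lower (median -0.54): the repressors IAA7 and IAA17 fell (log2 -1.66 and -1.48), while the response factor ARF2 rose by 1.31. The gibberellin list was also mixed, with 6 of 17 higher and 8 lower (median -0.17). GASA4 and GASA6, small peptides induced by gibberellin, fell (log2 -2.43 and -3.09), while GID1B rose by 2.62.

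**Figure D2:**
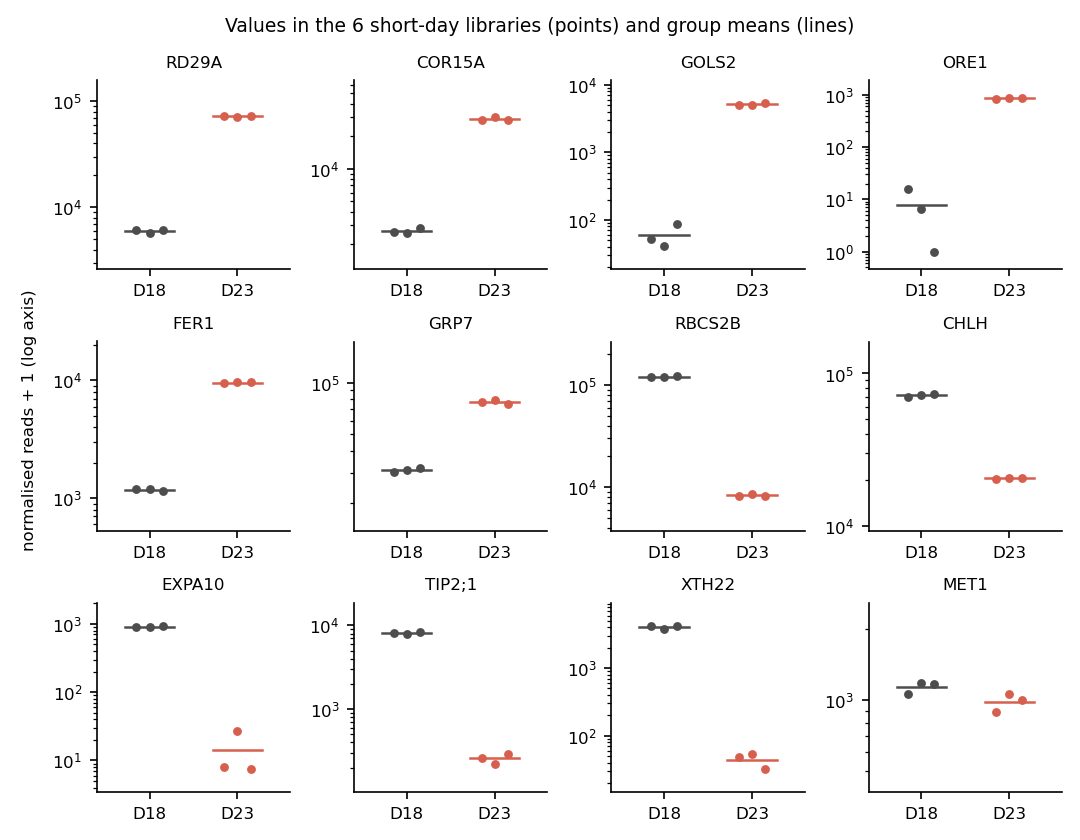
Normalised read counts plus 1 on a log axis for 12 genes in the 3 D18 and 3 D23 libraries (points), with the group mean (line). Groups are apart in every panel; MET1 is the closest, with its highest D23 value at 1055 and its lowest D18 value at 1062.

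Markers of cell types moved beside these lists. All 6 epidermis markers were lower (median -0.83), and their summed value went from 31052 to 31878 at D18 to 16485 to 16916 at D23. ATML1 and PDF2, which encode the homeodomain factors that define the epidermis, fell (log2 -0.52 and -0.45), and LTP1 (-1.80). Vascular markers were lower in 8 and higher in 2 of 10, and their sum went from 14711 to 15520 at D18 to 17191 to 17561 at D23. XCP1 and XCP2, proteases of forming xylem, fell (log2 -2.09 and -1.76), while PP2-A1, a phloem lectin, rose by 0.64; with all 15 groups in 1 fit the adjusted p was 0.12 for XCP1 and XCP2 and 0.095 for PP2-A1. Guard cell markers rose in 3 of 6 and fell in 1, with sums of 1688 to 1874 and 2268 to 2281. Of the myrosin cell markers TGG1 and TGG2, myrosinases that split glucosinolates, fell (log2 -1.34 and -1.49), and the summed value went from 24994 to 25503 down to 9824 to 9987. None of 4 trichome markers tested was called. The shoot meristem genes WUS, CLV3, CUC1 and CUC2 were at 0 in all 6 libraries, and KNAT2, the highest of the others, reached 11.1. Of 8 root genes 5 were at 0, while SCR had 478 to 629 normalised reads and SHR 151 to 288. SCR was called lower (log2 -0.24), a call that ended under TMM (adjusted p = 0.084). None of 3 flower genes tested was called, although AG had 67.6 to 107 normalised reads and SEP3 71.6 to 119. The part of cell types in the changes of the lists was not tested.

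The lowest median of all lists belonged to genes that respond within minutes to touch and other stress. Of 31 members 28 were lower and 3 were higher (median -2.80). XTH22 (AT5G57560), also known as TCH4 and the type gene of the touch response, had 4183, 3831 and 4136 normalised reads at D18 and 46.9, 51.7 and 30.8 at D23. It fell 93.9-fold (log2 change -6.55 ± 0.14 SE, adjusted p = 3.1e-24). HSPRO2, an immunity-related protein, fell (log2 -3.0), the deadenylase gene CAF1A (-4.70) and the ethylene response factor ERF104 (-3.08). TCH3, a calmodulin-like protein, fell (log2 -2.35), but an overlapping gene on the other strand could account for reads equal to 37.9% of its mean, and the reads of such pairs cannot be told apart. ACS6, a synthase of the ethylene precursor, fell (log2 -3.95). The labels give neither the time of day nor the handling at harvest, so these cannot be told apart from age.

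Every list of the photosynthetic apparatus was lower. All 15 antenna genes (median -1.42), all 20 photosystem and electron transport genes (-1.03), all 12 photorespiration genes (-0.67) and 16 of 17 Calvin cycle genes (-1.59) fell. RBCS1A (AT1G67090), a gene for the Rubisco small subunit, had 518021, 526654 and 523168 at D18 and 113792, 115995 and 115050 at D23 (log2 change -2.18 ± 0.01 SE, adjusted p = 3e-39). RBCS2B (AT5G38420), a copy of the same subunit, went from 119736, 119516 and 121422 to 8147, 8459 and 8196 (log2 change -3.86 ± 0.02 SE, adjusted p = 1.2e-38). The copies share much sequence, and how their reads were divided was not tested. Together the 4 small-subunit genes took 3.443 to 3.451% of reads in genes at D18 and 0.7519 to 0.7605% at D23. LHCB1.1 and LHCB2.3, antenna proteins of photosystem II, fell (log2 -2.46 and -3.61), and GAPA-2 (-2.60), a Calvin cycle dehydrogenase subunit. The antenna, photosystem and Calvin cycle lists together took 21.33 to 21.65% of reads at D18 and 11.2 to 11.28% at D23.

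Chlorophyll synthesis fell in all 21 tested members, with the lowest median of these plastid lists, -1.78. HEMA1, the glutamyl-tRNA reductase that commits the pathway, had 20293 ± 57.9 normalised reads at D18 and 3199 ± 146 at D23 (log2 -2.67). CHLH (AT5G13630), the large subunit of magnesium chelatase, had 70634, 72113 and 73560.5 at D18 and 20536, 20674 and 20637 at D23 (log2 change -1.81 ± 0.02 SE, adjusted p = 1.2e-31). CRD1, the cyclase, fell (log2 -1.84) and PORB (-1.94), the light-dependent reductase. Breakdown went the other way: 9 of 10 members rose and none fell (median 0.87). NYC1, which begins the conversion of chlorophyll b to a, rose by log2 1.11, SGR1, the magnesium dechelatase, by 1.38, PPH, the pheophytinase, by 1.81, and PAO, which opens the ring, by 1.17. SGR2, a relative of SGR1 that was chosen after its values were seen and has no symbol of its own in RefSeq, had 11.9 ± 12.4 normalised reads at D18 and 549 ± 46.4 at D23 (log2 6.07). Plastid transcription and translation genes fell in 16 of 24 and rose in 4 (median -0.64), with the plastid ribosomal proteins PRPS1 at -1.12 and PRPL11 at -1.37.

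Senescence genes did not move as 1 block. Of 20 tested members 10 were higher, 6 were lower and 4 were not called (median 0.24). ORE1 (AT5G39610), a NAC factor that drives leaf senescence, had 14.8, 5.57 and 0 normalised reads at D18 and 842, 871 and 865 at D23 (log2 change 7.51 ± 0.55 SE, adjusted p = 2.3e-12). NAP, a second NAC factor of senescence, went from 43.6, 52.5 and 33.4 to 937, 817 and 954 (log2 change 4.38 ± 0.18 SE, adjusted p = 1e-17). In both genes all D23 libraries lay above all D18 libraries. SEN1, a gene of dark and age, rose by log2 2.76 and GLN1;4, a cytosolic glutamine synthetase, by 2.01. SAG12, the protease that marks late senescence, had no read in any of the 6 libraries and was not tested; its mean in the D40 short-day leaves was 186833 ± 2229.7. WRKY53, an early regulator, and BFN1, a nuclease of senescence, fell (log2 -1.55 and -1.66), both chosen after their values were seen. Autophagy genes rose in 13 of 17 and fell in 1 (median 0.65): the cargo receptor NBR1 by 0.78, and ATG8A, ATG8F and ATG8I, which coat the autophagosome, by 1.34, 0.65 and 0.90. The dark and sugar starvation list was split, with 6 of 21 higher and 10 lower. DIN10, a raffinose synthase, fell (log2 -3.12), bZIP53 (-1.27), and TPS10 rose by 1.11.

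Cytosolic ribosomal protein genes fell in 24 of 25 members with none higher (median -1.03). RPL5A, a large-subunit protein, had 4244, 4115 and 4089 at D18 and 1599, 1455 and 1503 at D23 (log2 change -1.45 ± 0.05 SE, adjusted p = 2.1e-19), and RPL3A had 5565, 5628 and 5671 and 2714, 2478 and 2670.3 (log2 change -1.10 ± 0.04 SE, adjusted p = 3e-18). The groups of both genes were far apart, although reads may be divided between near-identical copies of such genes. Ribosome biogenesis, the nucleolar machinery that assembles these proteins with rRNA, was mixed: 2 of 20 members rose, 2 fell and 16 were not called (median 0.10). Its 2 lower members were FIB1 and FIB2, fibrillarins, at -0.33 and -0.94. The heat shock and folding list had 11 lower and 4 higher of 21, with the endoplasmic reticulum chaperones BIP1 at -0.90, BIP2 at -1.76, CNX1 at -1.47 and CRT1 at -1.20. Among reference genes 8 of 14 fell and 3 rose, with ACT2 at -0.62 and UBQ10 at 0.60. The site II element, TGGGCC or TGGGCT on either strand, was in 14 of 24 promoters of the lower ribosomal protein genes, in 22.2% of those of all lower genes and in 22.3% of all promoters. The RPL3A promoter (chr1:16266303-16266552, plus strand), with 3 matches in capitals, is shown as an example.
RPL3A: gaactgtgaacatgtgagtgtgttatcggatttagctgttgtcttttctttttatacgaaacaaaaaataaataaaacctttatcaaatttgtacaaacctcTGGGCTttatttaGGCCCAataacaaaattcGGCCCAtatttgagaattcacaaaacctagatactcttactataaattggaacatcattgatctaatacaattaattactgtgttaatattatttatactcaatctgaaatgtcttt

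Cell division genes were lower. In the mitosis list 18 of 25 members fell and none rose (median -1.07). CYCA2;3 and CYCB1;4, cyclins of the mitotic cycle, went from 132 ± 10.2 to 15.3 ± 15.9 and from 91.5 ± 9.69 to 13.7 ± 7.29 (log2 -3.69 and -2.80). CDKB2;1, a plant mitotic kinase, fell (log2 -1.35), a call that ended with all 15 groups in 1 fit, at an adjusted p of 0.27. DNA replication genes fell in 11 of 23 and rose in 2 (median -0.32), with the helicase subunit MCM7 at -1.12 and the licensing factor CDC6 at -0.60 (adjusted p = 0.3 with all 15 groups in 1 fit). Histone genes fell in 10 and rose in 4 of 19 (median -0.39). HTA6 and HTB2 fell (log2 -1.28 and -0.87), while HTR5 rose by 0.53. Summed over the list, values were 26813 to 27488 at D18 and 27700 to 27917 at D23. CYCD3;1, which starts the division cycle, fell (log2 -2.03), and CCS52A1 (-1.59), an activator of the endocycle. Growth regulators were mixed, with 9 of 21 higher and 6 lower (median 0.08): GRF3, a growth-regulating factor, rose by 1.92, DA1, which limits organ growth, rose by 0.81, and EBP1, which promotes it, fell (log2 -0.63).

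The DREAM complex represses cell-cycle genes and, through TCX5 and TCX6, genes of DNA methylation. Of 22 members 13 were higher and 7 lower (median 0.28). TCX6 had 289, 326 and 254 at D18 and 381, 392 and 425 at D23 (log2 change 0.47 ± 0.13 SE, adjusted p = 0.0036), without overlap, and its adjusted p was 0.66 with all 15 groups in 1 fit, which also took that of TCX5 to 0.058. TCX5 had 114, 164 and 108 and 216, 195 and 152, groups that overlap (log2 change 0.55 ± 0.21 SE, adjusted p = 0.026). Its call ended without D18 replicate 1 (adjusted p = 0.058), D18 replicate 3 (0.098), D23 replicate 1 (0.13) or D23 replicate 2 (0.072), and with the 5 short-day groups in 1 fit (0.11). An overlapping gene on the other strand could account for reads equal to 23.8% of its mean. ALY2, a DREAM subunit, rose by 0.79 and DEL2, an atypical E2F, by 1.15, while MYB3R4, an activator of mitotic genes, fell (log2 -1.43; adjusted p = 0.33 with all 15 groups in 1 fit).

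DNA methylation is kept through replication by MET1 at CG sites, with VIM proteins that recruit it, by CMT3 and CMT2 at non-CG sites, and by the remodeller DDM1. Of 11 genes of this list 7 were lower and none higher (median -0.41). The largest changes were in VIM2, VIM1 and CMT2, at log2 -1.22, -1.17 and -1.01. VIM1 had 426, 490.3 and 523 normalised reads at D18 and 219, 203 and 214 at D23. MET1 (AT5G49160) had 1062, 1176 and 1169 and 887, 1055 and 1001 (log2 change -0.21 ± 0.08 SE, adjusted p = 0.023). CMT3 had 1291, 1178 and 1086 and 968, 1031 and 982 (log2 change -0.25 ± 0.08 SE, adjusted p = 0.0063), and DDM1 had 719, 738 and 705 and 597, 515 and 513 (log2 change -0.41 ± 0.10 SE, adjusted p = 0.00056). In these 3 genes the groups did not overlap, but for MET1 and CMT3 the gap between the groups was smaller than the range within each. The MET1 call ended without D18 replicate 2 (adjusted p = 0.08), D18 replicate 3 (0.073) or D23 replicate 1 (0.16), and that of CMT3 without D18 replicate 1 (0.052) or under quantile normalisation (0.072). For MET1 it was also 0.17 under quantile normalisation, 0.052 under TMM, 0.055 by edgeR, 0.058 by DESeq2 and 0.12 with the 5 short-day groups in 1 fit. With all 15 groups in 1 fit, the adjusted p was 0.56 for MET1, 0.57 for CMT3, 0.49 for DDM1, 0.1 for VIM1 and 0.35 for VIM2.

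RNA-directed DNA methylation, which guides new methylation by small RNAs, had as many members higher as lower, 4 and 4 of 22 (median 0.14). AGO4, the small RNA effector, fell (log2 -0.61; adjusted p = 0.14 with all 15 groups in 1 fit) and SPT5L, a partner of the silencing polymerase, rose by 0.49. ROS1 (AT2G36490), the main demethylase of leaves, had 2012, 2095 and 2103 at D18 and 2786, 2795 and 2799 at D23 (log2 change 0.43 ± 0.05 SE, adjusted p = 2.4e-08). All D23 values of ROS1 were above all D18 values; with all 15 groups in 1 fit its adjusted p was 0.3.

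Clock genes were higher in 19 of 27 members and lower in 5 (median 0.35), and none of the lower members is named below. The labels do not give the time of day of harvest, so it cannot be told apart from age in these genes. GRP7 (AT2G21660), an RNA-binding protein under clock control, had 30241, 31265 and 31838 at D18 and 77348, 78809 and 75566 at D23 (log2 change 1.31 ± 0.02 SE, adjusted p = 4.3e-28), and its relative GRP8 rose by 1.22. PRR3, a pseudo-response regulator of the clock, rose by 1.81, FKF1, a blue-light receptor of flowering, by 1.41 and GI, its partner, by 0.76. FKF1 had an adjusted p of 0.11 with all 15 groups in 1 fit. ELF4 and TOC1, clock genes that peak in the evening, were at 1.82 and 1.24, and CCA1 and LHY, which peak in the morning, at 0.26 and 0.10, the last not called; these 4 were chosen after their values were seen. The evening element, AAAATATCT on either strand, was in 2.46% of all promoters, 3.33% of those of higher genes and 2.14% of those of lower genes, and in 6 of 19 promoters of higher and 0 of 5 of lower clock genes. The GRP7 promoter (chr2:9266558-9266807, minus strand) is shown because it holds 3 matches, in capitals; the window of PRR3 held none.
GRP7: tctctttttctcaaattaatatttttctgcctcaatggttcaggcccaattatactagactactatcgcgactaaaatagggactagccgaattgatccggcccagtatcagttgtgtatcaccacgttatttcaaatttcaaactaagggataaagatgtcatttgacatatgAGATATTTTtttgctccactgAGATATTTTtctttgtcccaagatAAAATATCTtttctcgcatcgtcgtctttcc

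Flowering genes rose in 12 of 18 and fell in 3 (median 0.61). FT (AT1G65480), the mobile signal made in leaves, was low in both groups, with 13.9, 3.18 and 5.57 at D18 and 27, 82.8 and 30.8 at D23 (log2 change 2.5 ± 0.62 SE, adjusted p = 0.00098); its call ended with the 5 short-day groups in 1 fit (adjusted p = 0.06). SOC1, an activator downstream, rose by 1.06, and TEM2, a repressor of FT, fell (log2 -1.87). SPL factors, which promote the adult phase as a plant ages, were higher in 5 of 9 and lower in 2: SPL9 rose by 0.89 and SPL4 by 0.69, with adjusted p of 0.28 and 0.36 with all 15 groups in 1 fit, and of 0.28 for SPL9 with the 5 short-day groups.

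Among defence genes the salicylic acid list had 13 lower and 6 higher of 24 (median -0.28). PR1 (AT2G14610), the marker of this response, had 3648, 3924 and 3818 at D18 and 552, 469 and 604 at D23 (log2 change -2.81 ± 0.08 SE, adjusted p = 3.6e-22; adjusted p = 0.11 with all 15 groups in 1 fit). PR2 and PR5 fell (log2 -2.36 and -3.57), and PR2 had an adjusted p of 0.072 in that fit. LURP1 of the same list rose by 1.21, with an adjusted p of 0.41 with all 15 groups in 1 fit. Jasmonate genes were 11 higher and 7 lower of 26; of the synthesis enzymes LOX2 rose by 1.23, AOC1 by 2.64 and AOC2 by 1.11. Glucosinolate synthesis, which makes the mustard oil precursors, rose in 21 of 30 and fell in 5 (median 0.71). MAM3, which elongates the methionine side chain, went from 432, 489 and 532 to 3996, 4211 and 3957 (log2 change 3.07 ± 0.07 SE, adjusted p = 1.6e-23), and MAM1, BCAT4 and CYP79F1 of the same branch rose by 1.48, 1.51 and 1.35. The flavonoid list was split between 8 higher and 6 lower of 21. CHS, the first enzyme, fell (log2 -1.76; adjusted p = 0.23 with all 15 groups in 1 fit), as did LBD37, LBD38 and LBD39 (-0.97, -2.90 and -2.88), repressors of anthocyanin genes. The late anthocyanin genes LDOX and DFR and their activator PAP1 were higher by 3.06, 2.23 and 3.71, all chosen after their values were seen.

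Nutrient genes showed opposite moves within lists. FER1 (AT5G01600), a ferritin that stores iron in plastids, had 1194, 1184 and 1157 at D18 and 9436, 9627 and 9734 at D23 (log2 change 3.03 ± 0.04 SE, adjusted p = 1.9e-28). The iron and copper list had 10 higher and 14 lower of 27 (median -0.36). OPT3, an iron transporter of the phloem, fell (log2 -1.73). BHLH38, BHLH39 and BHLH100, transcription factors of the iron deficiency response that were chosen after their values were seen, fell (log2 -4.58, -4.88 and -5.99). In nitrogen metabolism GLN2, the chloroplast glutamine synthetase, fell (log2 -1.12), while its cytosolic relative GLN1;1 rose by 1.03. AAP2, an amino acid transporter of the phloem, rose by 2.09, and ASN2, an asparagine synthetase, fell (log2 -2.10). Of 29 nitrogen genes 12 rose and 15 fell. Sugar transporters were mixed, with 8 of 20 higher and 6 lower (median -0.02). SWEET12 and SWEET13, sucrose exporters, rose by 2.12 and 1.96, and STP13, a hexose importer, by 1.88, while SUC1 fell (log2 -1.04). Antioxidant genes fell in 16 and rose in 6 of 29; CAT3, the catalase of ageing leaves, rose by 0.98 and the plastid peroxiredoxin PRXQ fell (log2 -1.78).

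The largest single changes include genes outside these lists. Among genes with a RefSeq symbol, the highest was CIPK25 (AT5G25110), a kinase regulated by calcium sensors, with 0, 7.96 and 1.86 at D18 and 772, 724 and 737 at D23 (log2 change 7.98 ± 0.50 SE, adjusted p = 7.1e-14). DAA1, MYB112, AACT1, WNK9, NUDT24 and PYD4 rose by log2 7.73, 6.78, 6.19, 5.91, 5.87 and 5.55; MYB112 is a transcription factor, WNK9 a protein kinase, NUDT24 a Nudix hydrolase and PYD4 an enzyme of pyrimidine breakdown. The lowest of these was GER3 (AT5G20630), a germin-like wall protein, with 1352, 1314 and 1286 at D18 and 0, 0 and 8.1 at D23 (log2 change -9.30 ± 0.53 SE, adjusted p = 9.8e-15). EXL1 (AT1G35140), an EXORDIUM-like protein induced when carbon is short, is a member of the dark and sugar starvation list. It went from 516, 436 and 447 to 0, 1.72 and 1.62 (log2 change -7.92 ± 0.46 SE, adjusted p = 2e-14). These falls end at values near 0, so their size depends on the pseudocount. The same holds for the rises of CIPK25, DAA1, MYB112, WNK9 and NUDT24, which start at values near 0. BZIP34 and BZIP61, related transcription factors, fell (log2 -7.70 and -6.96), DREB26 (-6.89), an ERF-type factor, and the cytochrome P450 CYP78A8 (-6.19).

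The step was set against the other short-day ages as levels only, without a test, because neighbouring comparisons share libraries. RD29A had means of 1539.8 ± 258 at D13, 25677 ± 259 at D30 and 4088 ± 225 at D40, so D23, at 71902 ± 363, was the highest of the 5 ages. XTH22 had 1366 ± 89.5, 19634 ± 391 and 52535 ± 1548 at these ages, so D23, at 43.1 ± 11, was the lowest. All 25 ribosomal protein genes had their lowest mean at D23, where 14% of all genes tested did. Of 30 glucosinolate genes 18 had their highest mean at D23, against 14.2% of all genes tested, and so did 11 of 24 cold and dehydration genes and 13 of 33 abscisic acid genes. Relative to D18, the median of the touch list was -2.11 at D13, -2.79 at D23, 2.72 at D30 and 3.25 at D40. The expansins ran from 0.11 at D13 to -1.95 at D23, -3.87 at D30 and -4.96 at D40, so that their drop at D23 was followed by lower levels still.

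**Figure D3:**
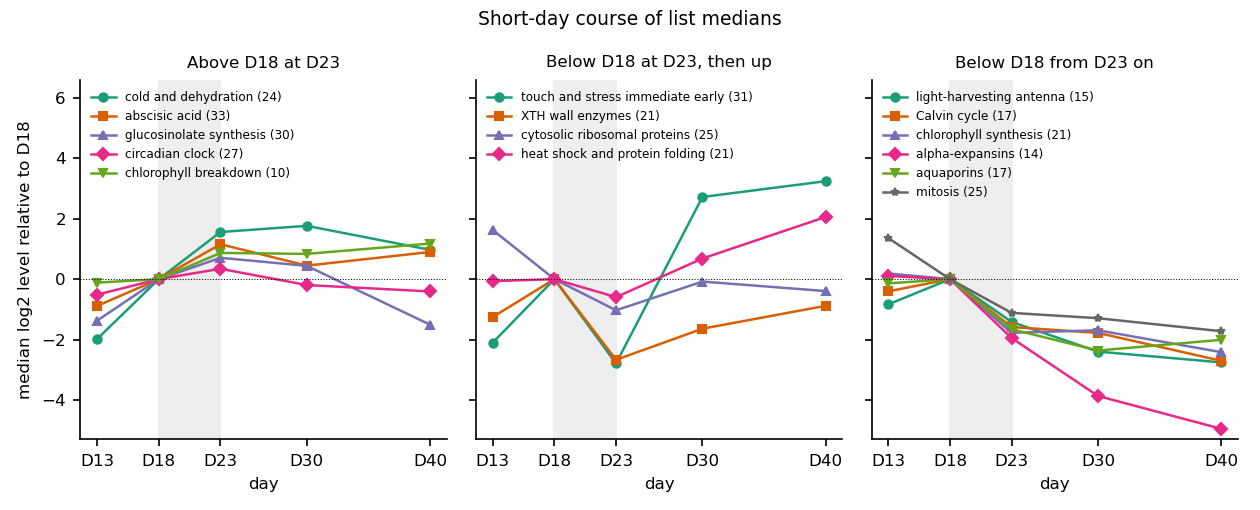
Median log2 level of gene lists at the 5 short-day ages relative to D18, in panels by how D23 stands to D18; lines join ages and the grey band marks D18 to D23. The ribosomal protein list is lowest at D23 (-1.03), the touch list returns above D18 at D30 (2.72), and the expansins go on falling.

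The same ages were also sampled under 16 h of light and 8 h of dark, in 6 libraries that share none with the short-day groups. A fit over the 12 libraries asked whether the D18 to D23 change differed between the libraries labelled short and long days. Of 21196 genes tested, 3462 (16.3%) changed more upward in short days and 4760 (22.5%) more downward, with a median difference of -0.06. In photosynthesis the difference was downward for 21 of 21 chlorophyll synthesis genes, 14 of 15 antenna genes and 18 of 20 photosystem genes. The median change in long days was 0.04 for chlorophyll synthesis and -0.21 for the antenna. The share of reads in the antenna, photosystem and Calvin cycle lists was 23.14 to 25.24% over the 6 long-day libraries of both days. For ribosomal protein genes the difference was downward in 23 of 25, and for expansins in 10 of 14, with long-day medians of -0.11 and 0.04. XTH genes also fell in long days, with a median of -1.62, and their difference was upward in 5 and downward in 10 of 22. Aquaporins had a long-day median of -0.15 and a downward difference in 12 of 17. Abscisic acid and cold genes differed upward in 18 of 33 and 14 of 24. Autophagy genes did so in 13 of 17, with a median change of 0.65 in short days and -0.24 in long days. Starvation genes did so in 12 of 22, where the median change was -0.06 in short days and -0.97 in long days. Their difference was thus upward with a fall in long days and not with a rise of the list median in short days.

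The touch list had a median change of -1.66 in long days and a called difference in 5 genes upward and 6 downward of 32. XTH22 went from 33849.6 ± 6943 to 577 ± 402 in long days. Glucosinolate genes rose more in long days, where their median change was 1.45: the difference was downward in 17 of 30. MYB112 (8.01), CIPK25 (7.16), DAA1 (6.94), NUDT24 (6.40) and AACT1 (6.25) had the highest log2 differences, and GER3 (-8.48), BZIP34 (-7.33), GH9B8 (-6.56), GH3.9 (-5.99) and BZIP61 (-5.93) the lowest. GH9B8, an endoglucanase-type wall enzyme, had 67.1 ± 14 normalised reads at D18 and 4.28 ± 3.48 at D23 in short days and went from 17.2 ± 7.86 to 104 ± 3.77 in long days. GH3.9, of a family that conjugates auxin to amino acids, had 361 ± 14.7 normalised reads at D18 and 13.1 ± 7.24 at D23 and went from 249.8 ± 99.9 to 532 ± 72.1. Long-day D18 replicates also varied more than the others, and the part of that spread in these calls was not tested.

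**Figure D4:**
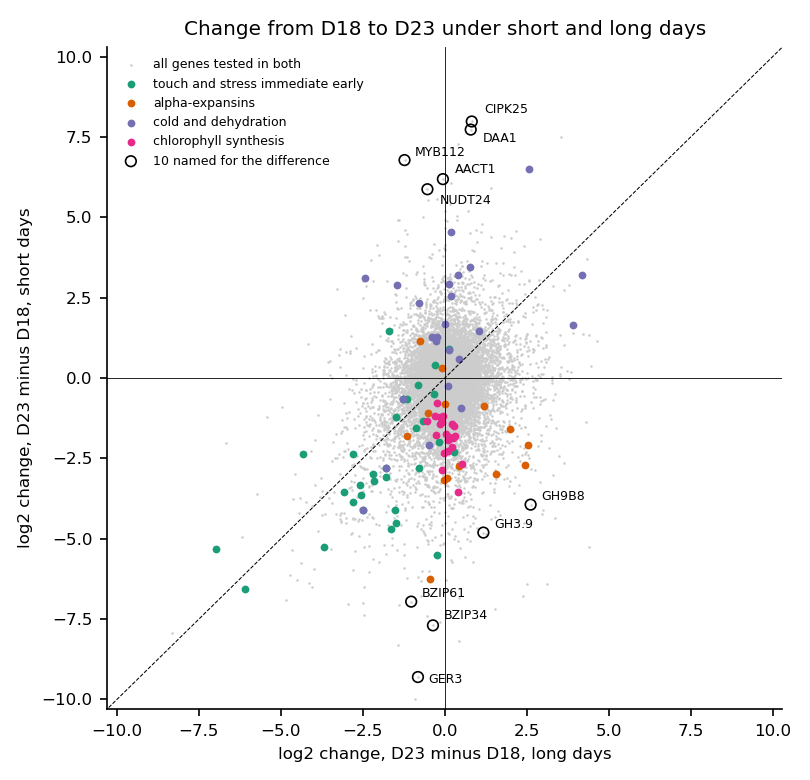
Log2 change from D18 to D23 in long days (x axis) and short days (y axis) for all genes tested in both (grey), with 4 lists in colour and the 10 genes with the largest differences circled; the dashed line marks equal change. Chlorophyll synthesis genes lie below 0 on the y axis and near 0 on the x axis, with medians of -1.78 and 0.04, while the touch genes have medians of -2.80 and -1.66.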

How the data were processed

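Polyadenylated RNA of first true leaves was sequenced from non-stranded libraries, per the labels' protocols. Per the submitters' processing notes, reads were trimmed by the authors (Trim Galore 0.6.6, cutadapt) and the other tools named are DESeq2 1.40.1, HTSeq 2.0 and STAR 2.7.1a; the genome build and the strand setting of counting are not given in the sources used here. The deposited values are a normalised signal, read counts per gene divided by 1 size factor per library. In all 45 libraries 100% of values were whole reads within 0.01 after division by the library's step, so whole reads were recovered. A further 5 summary entries that name no gene were left out, of which reads in no gene were 46.8 to 47.1% and ambiguous reads 0.156 to 0.184% of the 6 libraries, and no column belonged to another series. Of 37336 locus identifiers 37051 matched the RefSeq annotation, and 6729 genes tested overlap a gene on the opposite strand, whose reads cannot be told apart.

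Values were tested on log2(value + 1) with limma 3.58.1 in R 4.3.3, with a mean-variance trend and Benjamini-Hochberg adjustment over the 20523 genes with 10 or more in at least 3 libraries; calls required an adjusted p below 0.05. The 2 short-day groups alone were fitted, and a second fit over 12 libraries tested the difference between day lengths. Lists are described by counts and medians, without a set test. Named by rule were the 10 highest and 10 lowest called genes with an entry in RefSeq's symbol field other than the locus identifier and a group mean of 100 or more, up to 4 called members per list by the smallest adjusted p, 8 genes whatever their values (TCX5, TCX6, MET1, CMT3, DDM1, ROS1, FT and SAG12), and 5 highest and 5 lowest for the day-length difference. The comparison, lists and rule were chosen with earlier results of these data known. Alternatives were other pseudocounts and filters, TMM, quantile normalisation, edgeR 4.0.16 and DESeq2 1.42.0 on whole reads, the replicate number as a block, larger fits, each replicate left out, and genes with an opposite-strand overlap left out.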

Additional observations from a re-analysis of the deposited data

Results flagged for a closer look

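The change from D18 to D23 differed between the libraries labelled short and long days, by limma's test of the difference itself over 12 libraries. It was higher in short days for 3462 genes and lower for 4760 of 21196 tested. The 5 highest log2 differences among named genes were 8.01 in MYB112, 7.16 in CIPK25, 6.94 in DAA1, 6.40 in NUDT24 and 6.25 in AACT1. The 5 lowest were -8.48 in GER3, -7.33 in BZIP34, -6.56 in GH9B8, -5.99 in GH3.9 and -5.93 in BZIP61. Day length cannot be told apart here from what else sets these libraries apart, such as QQS.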

How the results depend on the processing

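With all 15 groups in 1 fit, the spread came from every age, both day lengths and the tcx5/6 line. The calls then came to 3081 genes higher and 3933 lower in short days, and the day-length difference to 1982 higher and 2617 lower. With the 5 short-day groups in 1 fit, 4833 genes were higher and 5621 lower. Which groups made the difference was not tested. Without 1 replicate at a time the calls of the main fits ran from 5172 to 5599 higher and 5961 to 6404 lower, and from 2953 to 4064 and 4219 to 5292 for the difference. The replicate block gave 5787 and 6656, and 3354 and 4664 for the difference; deviations of same-numbered libraries correlated at 0.0074, -0.0129 and 0.0020, so the numbers do not pair them. Quantile normalisation moved the median of all genes by 0.10 on the log2 scale and gave 6829 higher and 5792 lower, which turns the larger count from lower to higher; for the difference the shift was 0.11 and the counts 4185 and 4580. By edgeR 6109 were higher and 6324 lower, and by DESeq2 5950 and 6352. No gene named by rule changed direction under any alternative run, and no call of these genes ended under either pseudocount or the filter at 50. Genes chosen after their values were seen were not followed through the alternatives. Calls of genes named by rule ended 48 times with all 15 groups in 1 fit, 11 times with the 5 short-day groups in 1 fit and 20 times over the replicates left out. With 3 libraries a group, a gene that was not called is not shown to be unchanged.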
